A study of Mus musculus with 2 samples.

Results

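The 9 genes described here encode the enzymes that turn squalene into cholesterol: *Sqle*, *Lss*, *Cyp51*, *Msmo1*, *Nsdhl*, *Hsd17b7*, *Ebp*, *Sc5d* and *Dhcr7*. They were chosen by name and not by their values, but with earlier results of these data known. All 9 were found among the 23951 gene symbols that both RNA-seq libraries listed. RNA came from mouse optic nerve at P12, when this white matter tract is being myelinated. There was 1 control library, from mice with the genotype *Tcf7l2* c/+ with Olig1-cre, and 1 mutant library, from *Tcf7l2* c/c mice with Olig1-cre, the *Tcf7l2*ΔHMG mice. Both genotypes thus carried Cre and at least 1 floxed allele, and no library without Cre was analysed here. Recombination takes out the HMG box, with which Tcf7l2 binds DNA, and leaves the rest of the gene in frame, so *Tcf7l2* RNA is not necessarily lost in the mutant. The labels and the study's account of these mice give Olig1-cre, which acts in the oligodendrocyte lineage, although its methods also write the same genotypes with CNP-Cre. Mice of both sexes on a mixed background were used in the study, and the number of animals pooled in a library is not given in the sources used here.

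Cholesterol is a major lipid of myelin, and the central nervous system makes its own because lipoproteins in blood barely cross its barrier. Squalene is oxidized and closed into the ring system of lanosterol, after which methyl groups are removed and double bonds are moved or reduced until cholesterol remains. When sterols are low in the endoplasmic reticulum, the transcription factor SREBP2, encoded by *Srebf2*, is released and activates the genes of the whole pathway.

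All 9 enzymes had a lower FPKM in the mutant library than in the control library as deposited, although all 9 were higher, by 0.0215 to 0.63 on the log2 scale, when the 12 mature oligodendrocyte markers described further on were set to a median ratio of 0. FPKM counts sequenced fragments per kilobase of transcript, scaled to the mapped fragments of the library, so it allows levels of different genes to be compared. The log2 ratio of mutant to control, computed after 0.1 FPKM was added to both, ran from −0.92 for *Cyp51* to −0.31 for *Nsdhl*, with a median of −0.68. The median over all 14199 genes tested was 0.047, and 90% of those genes lay between −0.83 and 1.18. A gene was tested if it reached 1 FPKM in at least 1 library and had a Cufflinks status of OK in both. For 6 of the 9 enzymes the level was lower by a fold change above 1.5 (0.585 on the log2 scale), against 8.52% of all tested genes, and *Lss*, *Nsdhl* and *Dhcr7* were short of it. The Cufflinks intervals of both libraries were apart for all 9, against 22.4% of tested genes that were lower with intervals apart. The study had already named cholesterol biosynthesis among the genes lower in its P12 optic nerve RNA-seq, so these counts are no independent finding. With 1 library per genotype the differences had no replicate check in these data, no test was made, and the intervals cover sampling within a library only. The study separately measured cholesterol synthesis genes by qRT–PCR in optic nerves of replicate animals. It reported lower mRNA in the mutant for those it names as Tcf7l2 targets, which include *Lss*, *Cyp51* and *Hsd17b7*.

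**Figure D1:**
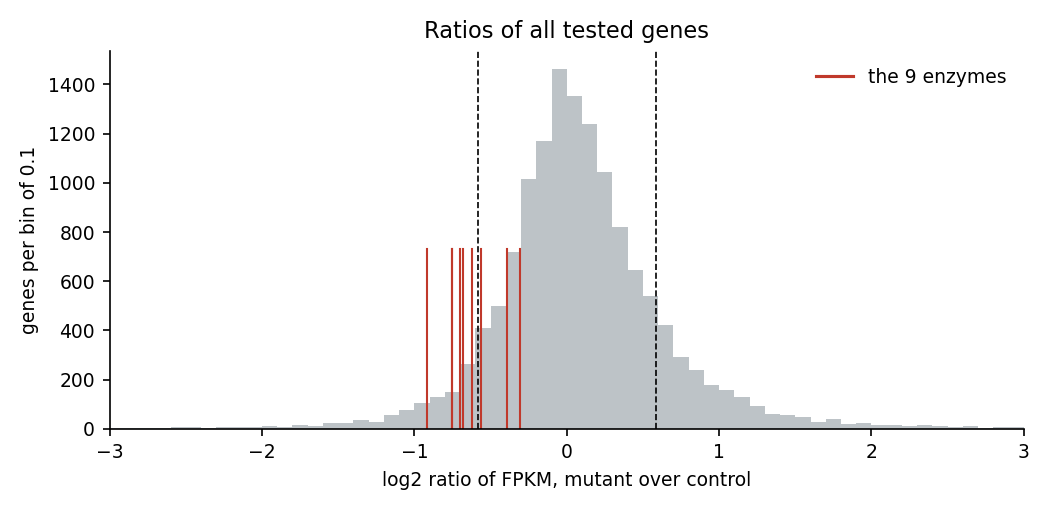
Number of tested genes (vertical axis) in each bin of the log2 ratio of mutant to control FPKM (horizontal axis), with dashed lines at a fold change of 1.5 in either direction; the few genes beyond the axis limits are not drawn. The red lines mark the 9 enzymes, all of which lie below 0 in FPKM as deposited, between −0.92 and −0.31, and above 0 when centred on mature oligodendrocyte markers.

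The promoters of the enzymes are shown first, since the 9 genes were lower together and the study asks about binding of Tcf7l2 and Sox10 at promoters of this pathway. RefSeq promoter windows on GRCm38.p6, from 250 bases before to 50 bases after an annotated start, were given for 8 of the 9 genes, and *Sqle* had no entry. The table holds 1 window for each of these genes except *Dhcr7*, which has 3. The letters CCAAT, the box bound by NF-Y, which acts beside SREBP at sterol genes, were present on either strand in the 100 bases before a start in all 8 genes (for *Dhcr7* at the third start only). Among all 27025 genes in the table, 21.6% held CCAAT there, and among the 10292 tested genes found in it by symbol, 26.0%. In the window of 300 bases the shares were 8 of 8, 41.1% and 42.9%. The 100 bases before the start are printed in the direction of the gene, with CCAAT, or its complement ATTGG, in capitals.
Lss (chr10:76531505-76531604, plus strand): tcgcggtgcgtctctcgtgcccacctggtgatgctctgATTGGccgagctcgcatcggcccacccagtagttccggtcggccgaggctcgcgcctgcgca
Cyp51 (chr5:4104698-4104797, minus strand): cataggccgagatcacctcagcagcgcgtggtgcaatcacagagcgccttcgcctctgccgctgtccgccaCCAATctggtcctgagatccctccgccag
Msmo1 (chr8:64733579-64733678, minus strand): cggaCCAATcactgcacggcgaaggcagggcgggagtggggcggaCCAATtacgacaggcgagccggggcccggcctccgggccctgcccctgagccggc
Nsdhl (chrX:72918421-72918520, plus strand): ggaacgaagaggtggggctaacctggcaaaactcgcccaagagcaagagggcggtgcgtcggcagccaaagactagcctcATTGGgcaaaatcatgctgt
Hsd17b7 (chr1:169969206-169969305, minus strand): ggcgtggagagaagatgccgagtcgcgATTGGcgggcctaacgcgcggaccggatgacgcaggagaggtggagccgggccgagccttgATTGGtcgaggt
Ebp (chrX:8193513-8193612, minus strand): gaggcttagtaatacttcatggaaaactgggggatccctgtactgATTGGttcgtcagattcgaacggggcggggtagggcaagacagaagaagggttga
Sc5d (chr9:42264301-42264400, minus strand): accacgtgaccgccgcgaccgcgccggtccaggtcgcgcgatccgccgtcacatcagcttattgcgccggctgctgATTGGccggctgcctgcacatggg
Dhcr7 (chr7:143830114-143830213, plus strand): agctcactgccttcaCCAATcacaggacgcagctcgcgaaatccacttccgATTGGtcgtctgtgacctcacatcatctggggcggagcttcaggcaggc

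A single CCAAT lay 62 bases before the start of *Lss*, 29 bases before that of *Cyp51* and 24 bases before that of *Sc5d*. *Msmo1* held it 160, 96 and 55 bases before its start, *Hsd17b7* at 165, 73 and 12 bases, *Ebp* at 170 and 55 bases, and the third start of *Dhcr7* at 85 and 49 bases. *Nsdhl* held it 109 and 20 bases before its start and again after it. The nearest match before the start thus began within 62 bases of it in each of the 8 genes.

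Letters of HMG box sites were rarer. TCAAAG, the core of the TCF and LEF motif, was in none of the 8 genes, against 18.2% of all genes in the table. ACAAAG, a form read by Sox proteins and other HMG box factors, was in 3 of 8, against 21.0% of all genes. The study's Sox motif has other forms, which were not searched. ACAAAG was thus looked for alone. It lay 193 bases before the start of *Cyp51*, 205 bases before that of *Hsd17b7* and 127 bases before the first start of *Dhcr7*, shown here with ACAAAG in capitals.
Cyp51 (chr5:4104875-4104900, minus strand): ggctggtctcACAAAGcccagaggtg
Hsd17b7 (chr1:169969395-169969420, minus strand): ttcactcagaACAAAGcccccgccgc
Dhcr7 (chr7:143823030-143823055, plus strand): gagatcctgcACAAAGcgcacccttt

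For the sterol regulatory element only the forms TCACNCCAC and TCACNCNAC were searched, so other forms would be missed. TCACNCCAC was found in none of the 8 genes (1.44% of all genes). The looser TCACNCNAC, which covers it, was in *Nsdhl* alone (3.15% of all genes), 205 bases before the start and in capitals here.
Nsdhl (chrX:72918306-72918334, plus strand): gcacttaccaTCACCCAACggactctgcc
These are matches of letters on either strand in short windows, and they show neither binding nor its absence.

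**Figure D2:**
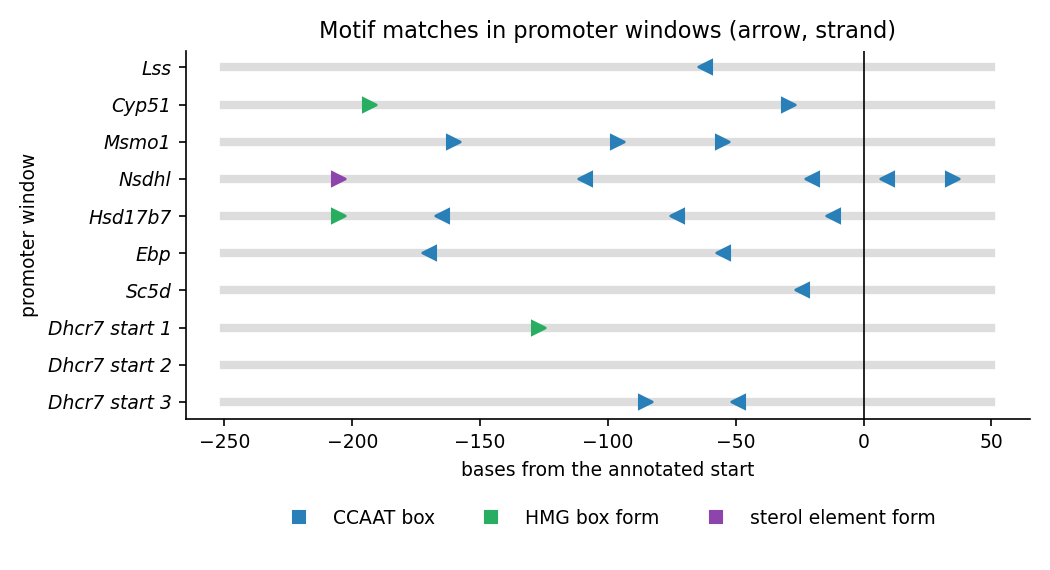
Matches of CCAAT (blue), ACAAAG (green) and TCACNCNAC (purple) in the promoter windows of 8 genes (vertical axis, *Dhcr7* with 3 starts), by distance in bases from the annotated start (horizontal axis, 0 at the start). Arrows give the strand relative to the gene; in all 8 genes a CCAAT lies within the 100 bases before a start, while the first start of *Dhcr7* has an ACAAAG only and the second has no match.

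The first enzyme, *Sqle*, encodes squalene epoxidase, which adds oxygen to squalene and is a point at which the flux is controlled. *Sqle* lies on chromosome 15 from 59146647 to 59162748 in mm9, the build named in the submitters' processing notes, with starts counted from 1. It measured 88.6 FPKM in the control library (Cufflinks interval 86.5 to 92.3) and 57.4 FPKM in the mutant library (53.1 to 57.3). The control was higher, the intervals were apart, and the mutant FPKM lay just above its own interval. The log2 ratio was −0.62, and the bounds of the intervals allowed a range of −0.80 to −0.59.

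*Lss* encodes lanosterol synthase, which closes the epoxide into the sterol rings, and lies on chromosome 10 from 75994363 to 76019873. It measured 45.3 FPKM in the control (44.1 to 46.4) against 34.5 FPKM in the mutant (33.4 to 35.6). The intervals were apart, but the log2 ratio of −0.39 (range −0.47 to −0.31) was short of the fold change of 1.5, and 15.0% of tested genes had a lower ratio than *Lss*.

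*Cyp51*, on chromosome 5 from 4080674 to 4104697, encodes the cytochrome P450 that starts the removal of methyl groups from lanosterol. It measured 80.6 FPKM in the control (77.1 to 81.2) against 42.7 FPKM in the mutant (40.7 to 43.7). This was the largest difference of the 9, a log2 ratio of −0.92 (range −0.99 to −0.82), and 4.27% of tested genes had a lower one.

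The next 3 enzymes work as a complex that removes the remaining methyl groups from the sterol ring. *Msmo1*, the methylsterol oxidase of this complex, lies on chromosome 8 from 67196942 to 67212375 and measured 98.3 FPKM in the control (interval 85.2 to 92.2) against 58.4 FPKM in the mutant (50.5 to 54.95). Both values lay above their own intervals, so the interval is a partial measure of error here, and the intervals were apart. Its log2 ratio was −0.75 (range −0.87 to −0.63).

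*Nsdhl*, the sterol dehydrogenase that releases the oxidized carbon, lies on chromosome X from 70163860 to 70203867. It measured 35.1 FPKM in the control (30.7 to 34.6, below the value itself) against 28.3 FPKM in the mutant (26.9 to 29.9). With a log2 ratio of −0.31 and a range of −0.37 to −0.036 it differed least among the 9, and 19.4% of tested genes had a lower ratio. With the midpoint of the interval in place of the FPKM its ratio was −0.20.

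*Hsd17b7*, the ketoreductase that completes the cycle, lies on chromosome 1 from 171879668 to 171899336 and had the lowest level of the 9 in both libraries. It measured 22.9 FPKM in the control (21.9 to 24.04) against 13.5 FPKM in the mutant (12.5 to 13.9). The log2 ratio was −0.75 (range −0.94 to −0.65), so *Hsd17b7* and *Msmo1* of the complex were lower by nearly the same amount and *Nsdhl* by less. The ranges of the ratio of *Nsdhl* were apart from those of *Msmo1* and *Hsd17b7*.

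*Ebp*, the sterol isomerase that moves a ring double bond, lies on chromosome X from 7761144 to 7770638 in the control, and its row starts at 7761150 in the mutant. It measured 32.1 FPKM in the control (30.4 to 33.9) against 20.0 FPKM in the mutant (18.8 to 21.2), a log2 ratio of −0.68 (range −0.85 to −0.52). *Sc5d*, the desaturase that adds a ring double bond, lies on chromosome 9 from 42059872 to 42072383 in the control and starts at 42059947 in the mutant. It measured 44.6 FPKM in the control (42.5 to 46.9) against 27.4 FPKM in the mutant (26.1 to 28.9), a log2 ratio of −0.70 (range −0.84 to −0.56). Both were past the fold change of 1.5 by their FPKM, while the ranges of their ratios crossed it.

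*Dhcr7*, the reductase that turns the precursor with a remaining extra ring double bond into cholesterol, lies on chromosome 7 from 151009072 to 151034315. It measured 54.2 FPKM in the control (51.9 to 56.9) against 36.7 FPKM in the mutant (33.7 to 36.6, just below the value itself). The intervals were apart and the log2 ratio was −0.56 (range −0.75 to −0.50), just short of the fold change of 1.5. It was past it, at −0.61 to −0.63, when the ratios were centred on the median of tested genes, when the 75th percentiles were set equal, when named rows were rescaled to a common sum, and with the midpoint of the interval in place of the FPKM.

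**Figure D3:**
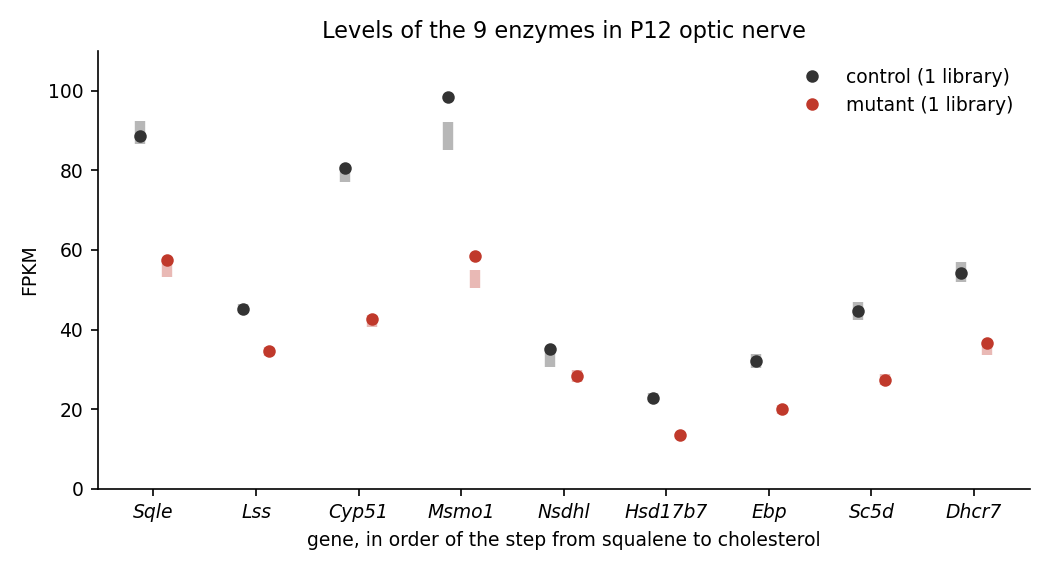
FPKM (vertical axis, from 0) of the 9 enzymes in order of their step (horizontal axis) in the control library (black) and the mutant library (red), 1 library each; points are FPKM and bars are Cufflinks intervals. Every enzyme is lower in the mutant in FPKM as deposited (not when centred on mature oligodendrocyte markers), with intervals apart, and points outside their bar are FPKM that lie outside their own interval, as for *Msmo1*.

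The levels kept nearly the same order in both libraries. In the control, *Msmo1*, *Sqle* and *Cyp51* stood highest, followed by *Dhcr7*, *Lss*, *Sc5d*, *Nsdhl*, *Ebp* and *Hsd17b7*. In the mutant only *Nsdhl* and *Sc5d*, at 28.3 and 27.4 FPKM, traded places, and their intervals overlapped. Neighbours whose intervals overlapped were *Msmo1* and *Sqle*, *Lss* and *Sc5d*, and *Nsdhl* and *Ebp* in the control, and *Msmo1* and *Sqle*, *Dhcr7* and *Lss*, and *Nsdhl* and *Sc5d* in the mutant. The highest level was 98.3 FPKM in the control against 58.4 FPKM in the mutant, both of *Msmo1*, above 94.7% and 90.1% of tested genes, whose median levels were 9.62 and 9.96 FPKM. The lowest, of *Hsd17b7*, was above 74.97% of tested genes in the control and 59.5% in the mutant. Summed over the 9 enzymes the level was 501.6 FPKM in the control against 319.0 FPKM in the mutant, a log2 ratio of −0.65. *Cyp51* made up 16.1% of that sum in the control and 13.4% in the mutant, *Lss* 9.02% and 10.8%, and *Nsdhl* 6.99% and 8.88%.

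Between these libraries the enzymes did not share a common ratio within the Cufflinks intervals, which hold no spread between animals. Of their 36 pairs, 16 had ranges of the log2 ratio that were apart, and each of these pairs included *Lss*, *Nsdhl* or *Cyp51*. The ranges of *Lss* and *Nsdhl* overlapped each other and lay above those of the other 7 enzymes, so these genes differed less between the libraries. The range of *Cyp51* lay below those of *Sqle*, *Lss*, *Nsdhl* and *Dhcr7* and overlapped those of the other 4. The whole range lay past the fold change of 1.5 for 4 enzymes (*Sqle*, *Cyp51*, *Msmo1*, *Hsd17b7*), crossed it for 3 (*Ebp*, *Sc5d*, *Dhcr7*) and stayed short of it for 2 (*Lss*, *Nsdhl*). The step in the pathway did not order the ratios, since the genes that differed least, *Lss* and *Nsdhl*, act before and after the gene that differed most, *Cyp51*.

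**Figure D4:**
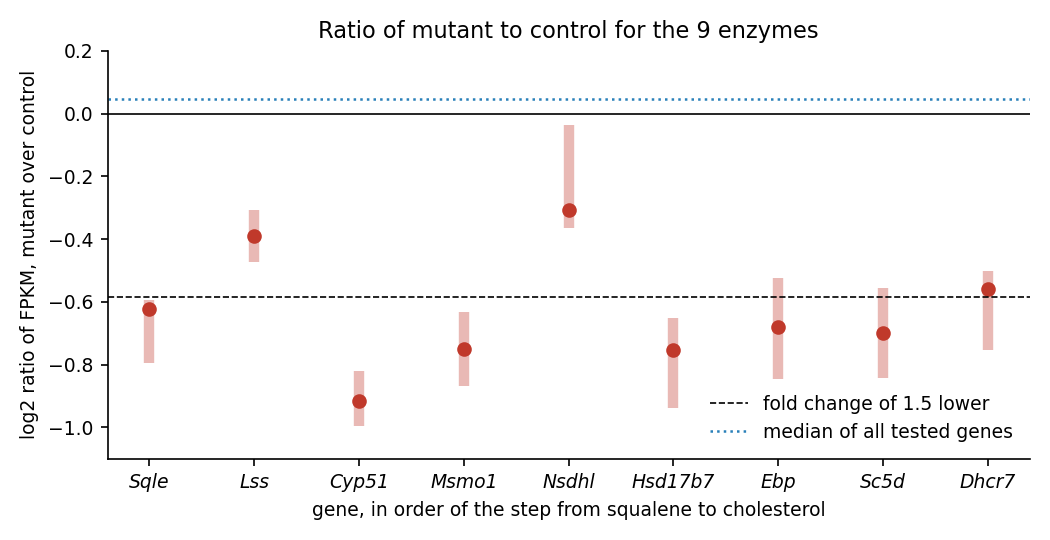
Log2 ratio of mutant to control FPKM (vertical axis) for the 9 enzymes in order of their step (horizontal axis); points are the ratio and bars the range that the Cufflinks intervals allow. In FPKM as deposited all points and bars lie below 0 (above it when centred on mature oligodendrocyte markers, for the points) and below the median of all tested genes (dotted, 0.047), and the dashed line is a fold change of 1.5, which the bars of *Lss* and *Nsdhl* do not reach.

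Sterol reductases outside the 9 enzymes were read beside them. *Lbr*, a sterol reductase of the nuclear envelope, measured 9.42 FPKM in the control against 6.04 FPKM in the mutant (log2 ratio −0.63, intervals apart). *Tm7sf2*, which catalyses the same reduction as *Lbr*, measured 39.0 FPKM and 34.2 FPKM (log2 ratio −0.19) with overlapping intervals, in a row that the files join with *Vps51*, so this value is uncertain.

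The 9 enzymes that make squalene from acetyl-CoA were also all lower in FPKM as deposited, with a median log2 ratio of −0.58 (0.36 when centred on the mature oligodendrocyte markers), all intervals apart, and 4 of 9 past the fold change of 1.5. Among those past it were *Fdps*, which makes farnesyl diphosphate (225.1 FPKM in the control against 127.4 FPKM in the mutant, log2 ratio −0.82), and *Acat2*, which makes acetoacetyl-CoA (73.1 and 44.1 FPKM, −0.73). *Mvd*, the mevalonate diphosphate decarboxylase, measured 58.0 and 37.9 FPKM (−0.61). The other 5 were short of the fold change of 1.5, with log2 ratios of −0.58 for the isomerase *Idi1*, −0.50 for the synthase *Hmgcs1*, −0.47 and −0.45 for the kinases *Mvk* and *Pmvk*, and −0.38 for *Fdft1*, which makes squalene. From *Fdft1* (65.4 FPKM in the control, 50.2 FPKM in the mutant) through *Sqle*, which takes up its product, to *Lss*, the ratios were thus −0.38, −0.62 and −0.39.

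Genes whose products serve the enzymes without acting on sterols did not share this direction. The list of electron donors and scaffold proteins had a median log2 ratio of 0.068, with 3 of 6 lower, 3 of 6 higher, and none past the fold change of 1.5. *Por*, which passes electrons to *Cyp51* and *Sqle*, measured 39.3 FPKM in the control against 47.2 FPKM in the mutant (0.27). *Cyb5r3*, the reductase of cytochrome b5, measured 78.6 and 97.5 FPKM (0.31), and *Pgrmc1*, a heme-binding partner of P450 enzymes, 129.4 and 178.6 FPKM (0.46). *Cyb5a* and *Cyb5b*, forms of cytochrome b5, had ratios of −0.13 and −0.15, and the mutant FPKM of *Cyb5a*, 200.6, lay above its interval of 142.3 to 154.1. *Erg28*, the scaffold of the demethylation complex, measured 69.8 and 48.3 FPKM (−0.53), the lowest ratio of this list, with *Msmo1*, *Nsdhl* and *Hsd17b7* at −0.75, −0.31 and −0.75.

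Among the genes that control the pathway, *Insig1*, which retains SREBP in the endoplasmic reticulum and is itself a SREBP target, measured 71.3 FPKM in the control against 41.6 FPKM in the mutant. Its log2 ratio of −0.78 was the only 1 of 7 past the fold change of 1.5. *Srebf2* measured 62.3 and 54.3 FPKM (−0.20, intervals apart) and *Srebf1*, which encodes the SREBP of fatty acid synthesis, 46.8 and 56.7 FPKM (0.28). *Scap*, the sterol sensor that escorts SREBP, and *Insig2* had ratios of 0.04 and 0.09 with overlapping intervals. The proteases *Mbtps1* and *Mbtps2*, which cut SREBP, had ratios of 0.46 and −0.35. The median of the list was 0.040.

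The list for uptake, storage and efflux of cholesterol had a median log2 ratio of −0.029, with 2 of 10 lower past the fold change of 1.5 (*Abcg1* and *Nr1h3*) and none higher. *Apoe*, the main apolipoprotein of the brain, measured 3339 FPKM in the control against 4114 FPKM in the mutant (0.30). Both FPKM of *Apoe* lay above their own intervals, whose bounds allowed a ratio of 0.12 to 0.16 only. *Npc2*, which moves cholesterol out of lysosomes, measured 91.2 and 77.5 FPKM (−0.24). *Npc1*, its membrane partner, had a ratio of −0.28, from a mutant row that the files join with *Ankrd29*.

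In a bulk sample, fewer cells of a type and less RNA per cell cannot be told apart. Markers of oligodendrocytes, the cells that make myelin, were lower in the mutant library as well. Of 12 markers of mature oligodendrocytes all were lower, 8 past the fold change of 1.5, with a median log2 ratio of −0.94 and a summed level of 32584 FPKM in the control against 18686 FPKM in the mutant. Among the most abundant were *Mbp* (16990 and 11646 FPKM, −0.54) and *Mobp* (2959 and 719 FPKM, −2.04). The list of oligodendrocyte lineage genes had a median of −0.60 (3 of 5 past it, summed 641.0 and 346.3 FPKM), led in level by *Olig1* (273.2 and 115.2 FPKM), *Sox10* (144.0 and 76.6 FPKM) and *Myrf* (106.6 and 70.2 FPKM). The ratios of this list ran from −1.24 to −0.15. Its median was the ratio of *Myrf*, which the study calls a myelination-promoting factor. Precursor markers had a median of −0.24 (1 of 5 past it, summed 375.8 and 303.2 FPKM), with *Gpr17* at −0.59, *Ptprz1* at 0.36 and *Lhfpl3* at −0.24. The median of the 9 enzymes, −0.68, lay between those of the mature and the lineage lists. The part of oligodendrocyte content in the lower levels of the enzymes was not tested.

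Relative to the median of the lineage markers, which is the ratio of *Myrf* alone, 6 of the 9 enzymes were lower and 3 higher, between −0.31 for *Cyp51* and 0.30 for *Nsdhl*. All 9 were thus lower against the median of all genes, and not all 9 against either list of oligodendrocyte markers of the same libraries. Rescaling all rows to a common sum instead shifted the median of all tested genes to −0.61, and the median of the 9 enzymes was then −1.35.

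Markers of other cell types were mostly higher in the mutant, where 15.4% of all tested genes were higher past the fold change of 1.5. Astrocyte markers had a median log2 ratio of 0.27 (2 of 8 higher past it, summed 5148 and 6139 FPKM), with *Gfap* at 0.22, *Slc1a3* at 0.10 and *Glul*, in a row joined with Mir8114, at 0.74. Microglial markers had a median of 0.24 (none of 8 past it, summed 241.7 and 319.0 FPKM), with *C1qb* at 0.58, *C1qa* at 0.47 and *Csf1r* at 0.32. Meningeal fibroblast markers had a median of 0.44 (2 of 6 past it, summed 867.1 and 1235 FPKM), with *Col1a2* at 0.39, *Col1a1* at 0.49 and *Dcn* at 0.78.

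Endothelial markers had a median of −0.30 (1 of 6 higher past it, none lower, summed 124.3 and 108.6 FPKM), with *Cldn5* at −0.55, *Cdh5* at 0.59 and *Pecam1* at −0.28. The 3 blood markers were all higher past it, with a median of 1.25 and a sum of 133.1 and 333.7 FPKM, of which *Hba-a1* and *Hbb-b1*, whose rows are joined with their near-identical copies, stood at 1.36 and 1.25 and *Alas2* at 1.08. Neuronal markers had a median of 0.94 (3 of 4 higher past it, summed 20.6 and 30.9 FPKM), with *Nefl* at 0.25, *Snap25* at 0.79 and *Syt1* at 1.68. No marker of any list was at 0 in either library, and the part of these cell types in the levels of the enzymes was not tested.

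*Tcf7l2* itself measured 17.8 FPKM in the control (16.7 to 18.9) against 14.6 FPKM in the mutant (13.9 to 15.4), a log2 ratio of −0.28. This value covers the whole gene, so it does not check the loss of the floxed exon, and the control also carried 1 floxed allele.

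Estimated from the interval bounds, the control library held about 27623000 mapped fragments and the mutant library about 39938000. At these depths the half-width of the Cufflinks interval was 2.53% to 5.86% of the FPKM for the 9 enzymes. For 4 of them, *Sqle*, *Msmo1*, *Nsdhl* and *Dhcr7*, the FPKM lay outside its own interval in 1 or both libraries. Some of the other genes named had a log2 ratio outside the range that their intervals allow. They were *Apoe*, *Cnp*, *Cyb5a*, *Cyb5r3*, *C1qa*, *C1qb*, *Hba-a1*, *Olig1* and *Sox10*.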

How the data were processed

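RNA was isolated from P12 optic nerves with Trizol, libraries were made with the Illumina RNA-seq kit, and the authors aligned the reads with TopHat (default settings). The deposited values are FPKM that the authors obtained with Cufflinks, which also gave an interval and a status. The submitters' processing notes name the build mm9, and versions are not given in the sources used here. Names joined by commas were split, and FPKM and interval bounds were summed per symbol; each of the 9 enzymes had 1 row per library. Ratios were log2 of mutant over control FPKM after 0.1 was added to both, which understates changes of low genes. Their range set the lower bound of one library over the upper bound of the other, and the reverse. The fold change of 1.5 is the study's cutoff. Depth was estimated from the interval bounds of unnamed rows under 100 bases. The depth was searched for at which these bounds are whole multiples of 1 fragment within 0.01 fragment. The shares of whole bounds at that depth, 99.5% and 99.7%, come from the search itself and are no separate check. The 9 genes, the lists and the motifs were chosen with earlier results of these data known. Named were the 9 genes, the genes of the reductase, electron donor, upstream and SREBP lists, *Tcf7l2*, and the 3 genes of highest control FPKM of each other list; *Abcg1* and *Nr1h3* were named after their values were seen. A few genes that this rule covers are not reported here. *Cyb5a* and *Erg28* stand in the files as Cyb5 and 0610007P14Rik. Promoters came from a RefSeq table on GRCm38.p6. The computation was tested on simulated data. Python 3.11.15, numpy 2.4.6, pandas 2.3.3 and matplotlib 3.10.9 were used.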

Additional observations from a re-analysis of the deposited data

How the results depend on the processing

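No paired analysis was possible because each genotype had 1 library, so leaving out a library was not possible either. Of 135 log2 ratios of the 9 enzymes under the alternatives, 123 were below 0, and the 12 above 0 came from centring on oligodendrocyte markers. Many of the 135 repeat the main value by construction. Each enzyme had 1 unmerged row of status OK per library, so FPKM filters, status, the highest row and merged rows could not change its ratio. The count of 123 is thus no measure of robustness. Centring on the mature oligodendrocyte markers, a shift of 0.94 by construction, left 0 enzymes and 0 upstream enzymes lower past a fold change of 1.5, with medians of 0.26 and 0.36 and a ratio of summed enzyme FPKM of 0.28. It turned all 9 enzymes above 0: *Lss* (0.55), *Nsdhl* (0.63) and *Dhcr7* (0.38), which had been short of 1.5, and *Sqle* (0.31), *Cyp51* (0.0215), *Msmo1* (0.19), *Hsd17b7* (0.19), *Ebp* (0.26) and *Sc5d* (0.24), which had been past it. It also turned the medians of the reductases (0.30), the lineage markers (0.33) and, to 0, its own list. Centring on the lineage markers gave 0 and 0, medians of −0.079 and 0.023, −0.051 for the sum, and 0 for its own list. Rescaling all rows gave medians of −1.35 and −1.25, −1.32 for the sum and 9 upstream enzymes past 1.5, and moved tested genes past it from 8.52% lower and 15.4% higher to 52.1% and 4.51%. A fold change above 2 left 0 of the enzymes, 0 upstream enzymes and 3.68% of tested genes. Intervals apart in place of a fold change gave 9 upstream enzymes. The midpoint of the interval, merged rows left out and the window of 100 bases were chosen after seeing the data; with the midpoint, 7 enzymes were past 1.5. So were 7 under centring on the median of tested genes, equal 75th percentiles and rescaling of named rows, and 9 under rescaling of all rows.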

Other observations

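Genes beside the enzymes gave values of their own (chosen after the data were seen). Named rows within 2000 bases of an enzyme were found for *Sqle*, *Lss*, *Cyp51*, *Nsdhl*, *Hsd17b7*, *Ebp* and *Dhcr7*, and none for *Msmo1* and *Sc5d*. *Akap9*, beside *Cyp51*, measured 5.27 FPKM in the control (interval 5.01 to 5.54) and 7.87 FPKM in the mutant (7.61 to 8.14), a log2 ratio of 0.57 with intervals apart, so the neighbours differed in opposite directions. *Nadsyn1*, beside *Dhcr7*, measured 2.52 and 3.37 FPKM (0.40) and E430025E21Rik, beside *Sqle*, 16.4 and 18.0 FPKM (0.13), both with overlapping intervals. *Cetn2*, beside *Nsdhl*, measured 24.1 and 22.1 FPKM (−0.12, intervals overlapping). *Porcn*, beside *Ebp*, was lower at 18.5 and 14.9 FPKM (−0.31, intervals apart), and an unnamed row beside *Ebp* measured 13.2 and 10.8 FPKM. The genes 4930483K19Rik at *Lss* and 3110045C21Rik at *Hsd17b7* were listed at 0 in both libraries.

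CCAAT in the 100 bases before a start was held by 4 of the 6 upstream enzymes with a RefSeq entry (*Hmgcs1*, *Idi1*, *Mvd*, *Mvk*), by both reductases with an entry (*Lbr*, *Tm7sf2*), by 1 of 4 electron donor and scaffold genes (*Cyb5b*) and by 1 of 9 mature oligodendrocyte markers (*Cldn11*). ACAAAG in the window of 300 bases was held by 4 of the 9 mature oligodendrocyte markers (*Cnp*, *Mag*, *Mobp*, *Opalin*) and by 16.2% of tested genes. TCAAAG was held there by *Mal* and *Ugt8a* of that list, by *Pmvk* of the upstream enzymes and by 14.3% of tested genes. These are matches of letters, given as a description.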
